A study of Mus musculus with 16 samples.

Results

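Macrophages of the mouse left ventricle were compared between 2 periods of a transverse aortic constriction (TAC) series, in which narrowing the aortic arch makes the left ventricle pump against a higher pressure. The cells are those that the authors' cell table annotates as MP, its code for macrophages: 1035 cells of 9 mice out of 1413 MP cells and 11492 cells of 16 mice in the series. All mice were male and belong to the TAC series. The labels give a disease stage in weeks, but not whether the mice at 0w had surgery, and no strain, age or allele. The early period holds 0w (2 mice) and 2w (2 mice), with 656 MP cells, and the late period holds 8w (3 mice) and 11w (2 mice), with 379 MP cells. The mice at 5w entered no comparison here. Slices of the ventricle were digested in 2 ways, one that enriches cardiomyocytes and one that enriches the other cells, and single cells were read as counts of unique molecular identifiers (UMIs), each standing for 1 captured polyadenylated RNA molecule.

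Heart macrophages come from a pool that lives in the tissue and renews itself there, and from blood monocytes that enter through the chemokine receptor Ccr2. The resident pool is known for scavenger receptors such as Lyve1, Timd4, Folr2 and Cd163 and for clearing debris and dying cells, and monocyte-derived cells for inflammatory cytokines and antigen presentation. Under pressure load both are known to take part in inflammation, growth of cardiomyocytes and fibrosis.

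Each cell was scaled to its own total of non-mitochondrial UMIs and given equal weight within its mouse, and levels are counts per 1000000 of that total (CPM). The mice gave 123, 181, 189 and 163 MP cells at 0w and 2w and 82, 48, 22, 142 and 85 at 8w and 11w, in the order of their replicate numbers within a stage. Values per mouse are given in this order throughout: 0w replicates 1 and 2, 2w replicates 1 and 2, then 8w replicates 1 to 3 and 11w replicates 1 and 2. Their MP cells held 5126749 to 8243700 non-mitochondrial UMIs per early mouse and 325560 to 5284869 per late mouse, with medians per cell of 14564 to 30700 and 8811 to 46598. The lowest total, 325560 UMIs in 22 cells, was that of 8w replicate 3, where single cells can set a gene's level. No cell name occurred more than once, and doublets were not called. The annotation was set against 18 macrophage identity genes (among them Cd68, Csf1r, C1qa, Lyz2 and Tyrobp). They took 1.36% to 2.29% of a cell's UMIs in the MP cells of early mice and 1.36% to 2.64% in those of late mice. In the cells annotated CM (cardiomyocytes), EC (endothelial cells), FB (fibroblasts) and T (T cells) the share lay between 0.0189% and 0.728% per mouse. In those annotated GN, the nearest type, it was 0.500% to 0.721% early and 0.221% to 0.784% late. The shares of MP cells lay above all of these over all plates, but not on every kind of plate, as given next.

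The MP cells of a mouse differed in content between the plates they were read from. On 5 plates used here (B, D, E, I and L, lettered in order of stage) under 20% of the annotated cells were cardiomyocytes. On the other 4 cardiomyocytes made up over 40%, at 77.6% (A), 82.6% (C), 86.5% (J) and 43.1% (K). The 2 kinds are called myocyte-poor and myocyte-rich here, by limits set after the data were seen. Transcripts of 36 cardiomyocyte marker genes took 0.655% to 2.07% of the UMIs of early MP cells on myocyte-poor plates and 7.99% to 16.8% on myocyte-rich plates. In late mice these shares were 0.286% to 1.47% and 2.59% to 10.1%. On plate K, the only myocyte-rich plate at 11w, they were 2.59% and 2.65% in 11w replicates 1 and 2. On plate J they were 10.1% and 6.24% in 8w replicates 2 and 3. Annotated cardiomyocytes on the same early myocyte-rich plates held 10.3% to 19.5%, so MP cells there carried the markers at a share that overlapped that of the cardiomyocytes themselves. Macrophage identity transcripts ran the other way: they took 2.19% to 3.26% on early myocyte-poor and 0.602% to 0.806% on early myocyte-rich plates, and 1.80% to 3.0% and 0.607% to 1.46% on the late ones. The share in early MP cells on myocyte-rich plates thus overlapped that of GN cells over all plates, and GN cells on myocyte-poor plates held up to 1.55%. The late cells on myocyte-rich plates were those of 4 mice.

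**Figure D1:**
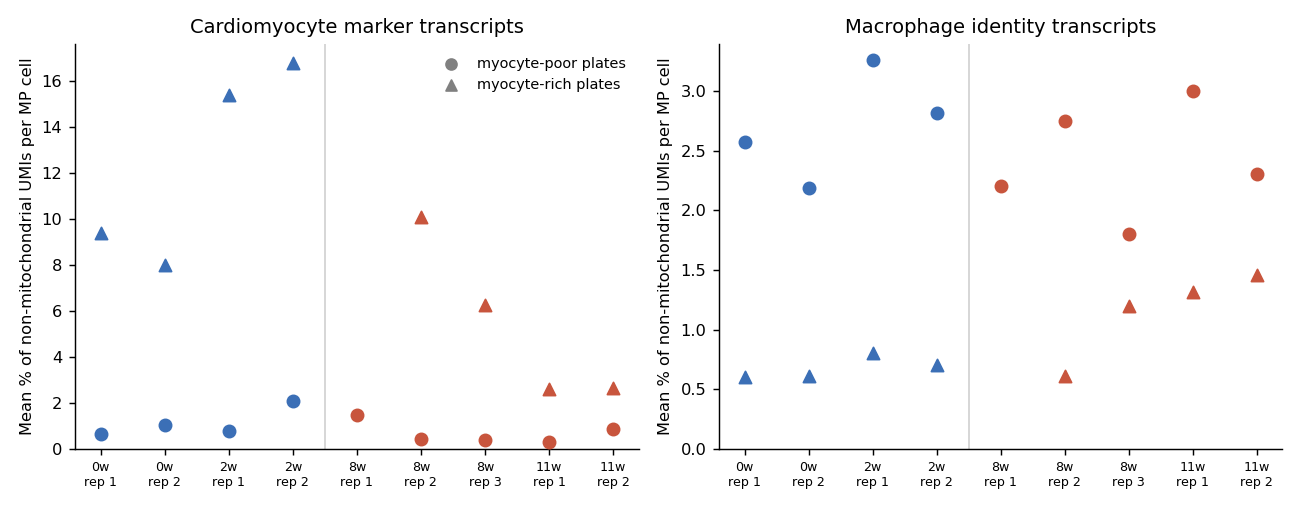
Mean percent of an MP cell's non-mitochondrial UMIs (y axis) that fell on 36 cardiomyocyte marker genes (left) and on 18 macrophage identity genes (right), for each of the 9 mice (x axis), blue for early and red for late mice. Circles stand for cells on myocyte-poor and triangles for cells on myocyte-rich plates: early triangles lie at 7.99% to 16.8% on the left and at 0.602% to 0.806% on the right.

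Of the early MP cells 384 were on myocyte-poor and 272 on myocyte-rich plates, and of the late ones 255 and 124. In 8w replicate 3 these were 6 and 16 cells, and in 8w replicate 2 they were 23 and 25. In the 6 cells red cell and platelet genes reached 179166 CPM. The mouse 8w replicate 1 had cells on 1 myocyte-poor plate only, which it shared with a mouse at 5w, and every other plate of the 9 mice held 1 stage. Plate and stage therefore cannot be told apart, and how much of a difference between periods belongs to the plates was not tested. Cells of both kinds were included in the sums below, and values within each kind of plate are given beside the results.

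Macrophages made up 17.1, 21.9, 33.3 and 29% of the annotated non-cardiomyocytes in the early mice, a mean of 25.3 ± 7.20% (SD, n = 4). In the late mice they made up 17.6, 26.5, 12.9, 21.1 and 12.5%, a mean of 18.1 ± 5.89% (SD, n = 5). The late mean was below the early mean (late minus early -7.22 percentage points), which did not pass the two-sided exact permutation test (p = 0.151, smallest p possible 0.00794). Both mice at 2w lay above every late mouse, and the mice at 0w lay within the late range. The 2 digestions can set these shares.

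No gene passed the comparison of the 5 late with the 4 early mice. edgeR's quasi-likelihood test with Benjamini-Hochberg adjustment called 0 of 11790 genes at an adjusted p under 0.05 (0%). It gave 288 higher genes (2.44%) and 407 lower genes (3.45%) at an unadjusted p under 0.05. DESeq2 called 27 higher (0.229%) and 33 lower (0.28%), each of which had an unadjusted p under 0.05 in edgeR. In 48 genes (0.407%) all 5 late mice stood above all 4 early mice, and in 288 (2.44%) below them. The genes described next are those of this kind with at least 50 CPM in the higher period and the smallest p, members of gene lists and a fixed set, and none of them passed edgeR's adjusted test. Their log2 fold changes are late over early, with standard errors that reached a median of 0.53 among genes at 50 CPM or more.

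Gene lists of macrophage states had medians above that of all genes, apart from MHC class I genes. Lists of cardiomyocytes, oxidative phosphorylation and the cell cycle had medians below it. On the myocyte-poor plates most of the macrophage medians lay near 0 or below. Most of them still lay above the median of all genes on these plates (-0.24). Lysosomal, scavenger receptor (-0.28) and MHC class I genes lay below it, and genes of lipid-handling macrophages lay at about that value (-0.24). Beside a median log2 fold change of -0.03 over all cells, -0.24 on myocyte-poor and 0.05 on myocyte-rich plates for all genes tested, of which 5708 of 11790 (48.4%) were positive, resident macrophage genes had a median of 0.42 over all cells, -0.01 on myocyte-poor and 0.74 on myocyte-rich plates. Recruited monocyte genes had 0.70 over all cells, 0.40 on myocyte-poor and 0.76 on myocyte-rich plates, and the macrophage identity genes 0.16 over all cells, -0.15 on myocyte-poor and 1.00 on myocyte-rich plates. At an unadjusted p under 0.05 the resident list held 6 higher and 0 lower genes of 25 tested (26 listed). The recruited list held 3 higher and 0 lower of 20 (25 listed), and the identity list 0 higher and 0 lower of 18. Beside these, 2.44% of all genes were higher and 3.45% lower at that p. No list had a member past the adjusted test. Lysosomal genes, whose products digest engulfed material, had 0.08 over all cells, -0.52 on myocyte-poor and 0.85 on myocyte-rich plates. Cytokine and NF-kB genes had 0.38 over all cells, -0.02 on myocyte-poor and 0.81 on myocyte-rich plates. On the myocyte-rich plates macrophage identity transcripts averaged 0.680% early and 1.15% late, and cardiomyocyte markers 12.4% and 5.39%, over 4 mice each. Of the 124 late cells on these plates, 31 and 52 (11w replicates 1 and 2) were on plate K, where 43.1% of the annotated cells were cardiomyocytes. The part of these differences in the list medians was not tested.

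**Figure D2:**
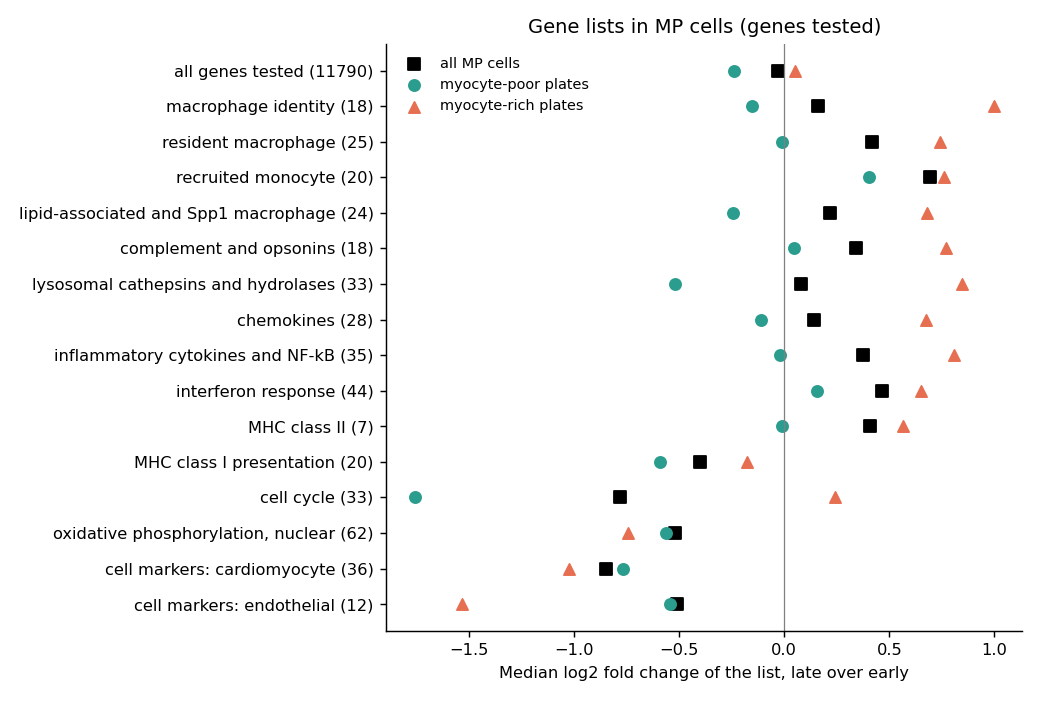
Median log2 fold change of each gene list in MP cells, late over early (x axis), by list with the number of genes tested (y axis). Black squares stand for all cells, green circles for myocyte-poor and orange triangles for myocyte-rich plates: the lists of macrophage identity, state and immune function described here lie between -0.52 and 0.40 on myocyte-poor plates and between 0.56 and 1.00 on myocyte-rich plates, apart from MHC class I at -0.59 and -0.18.

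Among genes of resident macrophages, Cd209f, a C-type lectin of the DC-SIGN family (mm10 chr8:4102787-4105835), had the smallest p. It stood at 1.17, 4.56, 1.92 and 13.3 CPM in the early mice and 49.7, 66.4, 155, 45 and 52.9 CPM in the late mice (log2 fold change 3.9 ± 0.83 SE, edgeR adjusted p = 0.310). The periods did not overlap, and DESeq2 called it (adjusted p = 0.000131). The level rested on few cells: 4, 4, 1 and 3 cells held a UMI in the early and 4, 2, 1, 4 and 3 in the late mice, and 1 cell gave 68.9% to 100% of each late level.

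Ccl24, an eosinophil-attracting chemokine of alternatively activated macrophages, stood at 23.4, 70.2, 13.5 and 13.8 CPM in the early mice and 239, 293, 109, 72.8 and 10.6 CPM in the late mice (log2 fold change 2.32 ± 0.77 SE, edgeR adjusted p = 0.753). The 3 mice at 8w were highest, 11w replicate 1 lay just above the highest early mouse and 11w replicate 2 below the lowest, and its log2 fold change was 2.61 on the myocyte-poor and -0.10 on the myocyte-rich plates. Gas6, the bridging ligand by which Mertk and Axl bind dying cells, had levels of 113, 118, 134 and 136 CPM in the early mice and 273, 229.6, 274, 199 and 81.7 CPM in the late mice (log2 fold change 0.82 ± 0.38 SE, edgeR adjusted p = 0.846), with 11w replicate 2 below every early mouse. The receptors and scavengers that define the resident pool did not separate the periods. Lyve1, a hyaluronan receptor, was at 708, 471, 306 and 225 CPM in the early mice and 879.7, 264, 171, 484 and 374 CPM in the late mice (log2 fold change 0.06 ± 0.43 SE, edgeR adjusted p = 0.995), and its highest mouse, 8w replicate 1, and its lowest, 8w replicate 3, were of the same stage. For Timd4, which binds phosphatidylserine, the log2 fold change was -0.52 ± 0.68, for the folate receptor Folr2 0.20 ± 0.29, for the haemoglobin scavenger Cd163 -0.40 ± 0.46, for the mannose receptor Mrc1 0.42 ± 0.35 and for the growth factor Igf1 -0.26 ± 0.39. C1qa, a chain of complement C1q, averaged 439 ± 129 CPM (SD, n = 4) early and 449 ± 88.9 CPM (SD, n = 5) late. The periods overlapped in each of these 7 genes.

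**Figure D3:**
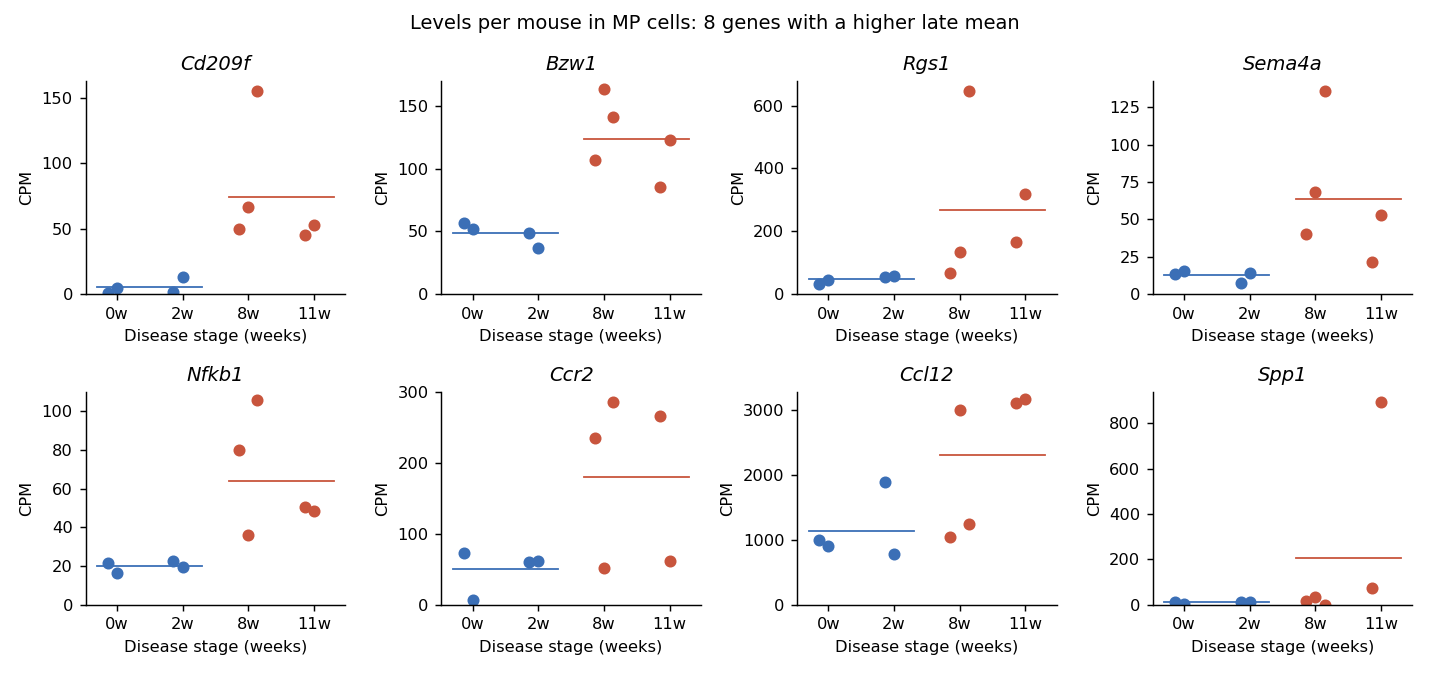
Levels in CPM (y axes) of 8 genes in the MP cells of each mouse, by disease stage in weeks (x axes), blue for the 4 early and red for the 5 late mice, with a line at each period's mean. Late Bzw1 levels begin at 85.0 CPM against an early maximum of 56.3 CPM, Ccr2 and Ccl12 overlap between the periods, and Spp1 has 1 late mouse at 895 CPM.

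Of the genes of recruited monocytes 18 of 20 had a positive log2 fold change over all cells (90.0%, beside 48.4% of all genes). On the myocyte-poor plates it was 12 of 18, beside 3922 of 9795 genes. Ccr2 stood at 73.1, 6.94, 60.9 and 62 CPM in the early mice and 235, 51.5, 286, 267 and 61.4 CPM in the late mice (log2 fold change 1.87 ± 0.65 SE, edgeR adjusted p = 0.761). In 3 late mice levels lay above every early mouse, and 8w replicate 2 and 11w replicate 2 lay within the early range. Chi3l3, a chitinase-like lectin of the alternatively activated state (now Chil3), had at most 2.60 CPM in the early mice and 25.8, 0, 0, 26.7 and 76.4 CPM in the late ones, so 2 late mice had none. Lst1, a small myeloid transmembrane protein, had a log2 fold change of 1.12 ± 0.50. The monocyte surface gene Ly6c2 was at 64.3, 72.3, 76.2 and 42.1 CPM in the early mice and 49.3, 73.6, 60.0, 57.3 and 516 CPM in the late mice, and its log2 fold change of 1.43 ± 0.70 became -0.04 without 11w replicate 2. The fractalkine receptor gene Cx3cr1 ran from 0 to 482 CPM among the late mice alone (log2 fold change 1.5 ± 1.04 SE, edgeR adjusted p = 0.914).

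Of the genes of lipid-handling macrophages 15 of 24 had a positive log2 fold change over all cells, and 8 of 23 on the myocyte-poor plates. Their median was 0.22 over all cells, -0.24 on myocyte-poor and 0.68 on myocyte-rich plates. Spp1, which encodes the matrix protein osteopontin (mm10 chr5:104435118-104441050), stood at 12.7, 4.12, 11.1 and 14.2 CPM in the early mice and 17.2, 35.0, 0, 75.9 and 895 CPM in the late mice (log2 fold change 4.50 ± 1.4 SE, edgeR adjusted p = 0.753). The late mean of 205 ± 387 CPM (SD, n = 5) rested on 11w replicate 2, where 18 of 85 cells held a UMI. Without that mouse the log2 fold change was 1.7, and within it the level was 1439.9 CPM on the myocyte-rich and 35.8 CPM on the myocyte-poor plate. The macrophage elastase Mmp12 was at 49.3, 35.4, 21.2 and 54.0 CPM in the early mice and 36.8, 222, 188, 79.3 and 144 CPM in the late mice (log2 fold change 1.87 ± 0.57 SE, edgeR adjusted p = 0.681), with 8w replicate 1 in the early range. Apoe, the apolipoprotein through which macrophages export cholesterol, was among the most abundant transcripts, with 16221, 10315, 14138 and 19549 CPM in the early mice and 26915, 22814, 16911, 39569.5 and 12878 CPM in the late mice (log2 fold change 0.73 ± 0.32 SE, edgeR adjusted p = 0.846). Its periods overlapped, and within a mouse it depended on the plate: early means were 22622 CPM on myocyte-poor and 3899.7 CPM on myocyte-rich plates, and late means 32427 and 9303 CPM. The lipid receptor Trem2 (0.61 ± 0.51) and Gpnmb (1.96 ± 1.21), a glycoprotein of lipid-laden macrophages, overlapped as well, and Gpnmb was read in 7 early and 11 late cells only.

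The next genes were chosen because all 5 late mice lay above all 4 early mice, so that their separation is a description. This held in 28 of 3441 genes at 50 CPM or more (0.814%), near the share of 1 in the 126 possible splits of the mice (0.00794). Rgs1, which shuts off G protein signalling from chemokine receptors (mm10 chr1:144242296-144249242), was at 33.6, 45.6, 53.9 and 58.6 CPM in the early mice and 66.8, 133, 648, 167 and 320.2 CPM in the late mice (log2 fold change 2.58 ± 0.58 SE, edgeR adjusted p = 0.377). Its lowest late mouse lay just above the highest early mouse, the log2 fold change was 3.26 on the myocyte-poor and 2.11 on the myocyte-rich plates, and DESeq2 called it (adjusted p = 0.00809). Sema4a, a semaphorin that acts on T cells, had 13.2, 15.5, 7.14 and 14.0 CPM in the early mice and 40.3, 68.3, 136, 21.7 and 53.1 CPM in the late mice (log2 fold change 2.44 ± 0.68 SE, edgeR adjusted p = 0.666). Nfkb1, the p105 and p50 subunit of NF-kB, had 21.6, 16.7, 22.7 and 19.5 CPM in the early mice and 79.8, 36.2, 106, 50.7 and 48.6 CPM in the late mice (log2 fold change 1.72 ± 0.57 SE, edgeR adjusted p = 0.753), so its early mice lay within a narrow band that all late mice exceeded. It was higher by 1.73 on the myocyte-poor and 1.63 on the myocyte-rich plates. Nfatc2, a calcium-regulated transcription factor, averaged 15.7 ± 14.1 CPM (SD, n = 4) early and 58.6 ± 4.97 CPM (SD, n = 5) late.

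Il1b, the precursor of interleukin 1 beta, was at 178, 161, 132 and 122 CPM in the early mice and 44.6, 319, 476, 379 and 433 CPM in the late mice (log2 fold change 1.27 ± 0.51 SE, edgeR adjusted p = 0.844). The late mice lay above the early range except 8w replicate 1, which lay below it. The chemokine Ccl12, a mouse ligand of Ccr2, was at 997, 899.6, 1885 and 789.6 CPM in the early mice and 1046, 2996, 1244, 3109 and 3163 CPM in the late mice (log2 fold change 1.13 ± 0.42 SE, edgeR adjusted p = 0.768). Here 3 late mice lay above every early mouse and the other 2 lay among the early mice. Its sister chemokines Ccl2 (0.10 ± 0.42) and Ccl8 (0.30 ± 0.64) had log2 fold changes smaller than their standard errors. So had Tnf, tumour necrosis factor (-0.22 ± 0.52), Tgfb1, transforming growth factor beta (-0.35 ± 0.96), the haem oxygenase gene Hmox1 (-0.03 ± 0.46) and the fibronectin gene Fn1 (0.19 ± 0.67). The anti-inflammatory cytokine gene Il10 had 0.87 ± 0.82.

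Further genes were chosen in the same way, for late mice that all stood above the early mice. Mean levels were 326 ± 50.04 CPM (SD, n = 4) early and 536 ± 86.2 CPM (SD, n = 5) late for Canx, the endoplasmic reticulum chaperone calnexin. For Anxa5, the phosphatidylserine-binding annexin, they were 482 ± 34.0 CPM (SD, n = 4) and 718 ± 123 CPM (SD, n = 5). Log2 fold changes were 1.45 ± 0.44 for the translation regulator Bzw1, 1.47 ± 0.50 for the dynein adaptor Hook3, 1.64 ± 0.56 for Ndel1, another dynein partner, 1.22 ± 0.46 for the vesicle tethering factor Trappc4 and 1.60 ± 0.62 for Cstf3 of mRNA 3' end cleavage. Ndel1 had 0.78 without 8w replicate 3, and Trappc4 had -0.35 on the myocyte-rich plates. Among list members with overlapping periods, the chaperone gene Hspa8 had 0.91 ± 0.31, the lysosomal membrane genes Lamp1 and Lamp2 0.61 ± 0.28 and 0.74 ± 0.32, and C4b of the classical complement pathway 1.79 ± 0.73, which became 0.49 without 8w replicate 3.

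Of the genes of antigen presentation through MHC class I, which shows peptides from inside the cell, 4 of 20 had a positive log2 fold change (median -0.40 over all cells, -0.59 on myocyte-poor and -0.18 on myocyte-rich plates). H2-K1, a class I heavy chain, was at 877, 765, 1746 and 1000.4 CPM in the early mice and 377, 393, 475, 817 and 905 CPM in the late mice (log2 fold change -0.78 ± 0.37 SE, edgeR adjusted p = 0.847). The peptide transporter gene Tap1 had -1.77 ± 0.77, with 2w replicate 1 at 228 CPM and the other 8 mice at 2.09 to 86.1 CPM. Without 2w replicate 1 it had -0.86. The interferon-induced GTPase gene Igtp had -2.03 ± 0.90, again highest in 2w replicate 1 (293 CPM), and -1.25 without that mouse. The interferon response list as a whole had 28 of 44 positive members. Its median was 0.46 over all cells, 0.16 on myocyte-poor and 0.65 on myocyte-rich plates. The summed level of the list was 4569, 4878, 11195 and 4249 CPM in the early mice. In the late mice it was 3926, 5064, 3272, 8386 and 16116 CPM, so 8w replicates 1 and 3 lay below every early mouse and 11w replicate 2 above all. MHC class II genes, which show peptides of engulfed material, had 6 of 7 positive over all cells and 3 of 7 on the myocyte-poor plates. Their median was 0.41 over all cells, -0.01 on myocyte-poor and 0.56 on myocyte-rich plates. H2-Aa had 0.23 ± 0.43 and the invariant chain gene Cd74 -0.14 ± 0.54.

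Many of the named genes with lower levels in late macrophages were transcripts of cardiomyocytes. By which route they came to be read with MP cells was not tested. The 36 cardiomyocyte markers had a median of -0.85 over all cells, -0.77 on myocyte-poor and -1.03 on myocyte-rich plates, with 6 of 36 positive. Beside 2.44% of all genes higher and 3.45% lower at an unadjusted p under 0.05, 0 of these markers were higher and 9 lower. Their summed level was 30700 to 81996 CPM in the early and 7890.3 to 54519 CPM in the late mice. Tcap, telethonin of the sarcomere Z disc (mm10 chr11:98383811-98384953), was at 812, 1274, 2268 and 2455 CPM in the early mice and 585, 653, 386, 123 and 292 CPM in the late mice (log2 fold change -1.97 ± 0.44 SE, edgeR adjusted p = 0.377), without overlap. Myh6, the main myosin heavy chain of the adult mouse ventricle, was at 1945, 3095, 5902 and 7538 CPM in the early mice and 832, 2835, 1376, 405 and 861 CPM in the late mice (log2 fold change -1.74 ± 0.50 SE, edgeR adjusted p = 0.666), and the calcium release channel gene Ryr2 had -1.98 ± 0.70. In MP cells of early mice Myh6 averaged 433 CPM on myocyte-poor and 10817 CPM on myocyte-rich plates, against 11735 CPM in annotated cardiomyocytes. In late mice the values were 313, 2450.5 and 3398 CPM, so the level was lower in late cardiomyocytes too.

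A first mark took in the 36 listed cardiomyocyte markers by their listing, and 5 further genes (Akap6, Klhl31, Synpo2l, Myot and Dct, named after their values were seen) because they had at least 4 times the level of all MP cells and at least 50 CPM in cardiomyocytes. Of the 36 listed genes 0 met both limits themselves, and the MP level used includes the MP cells of myocyte-rich plates. A second mark, chosen after the data were seen, set the cardiomyocyte level against MP cells of myocyte-poor plates and took in 343 of 11790 genes (2.91%). Of these 299 had a negative log2 fold change, and the median over all 343 was -0.77. Genes with this mark made up 23 of the 69 genes at 50 CPM or more whose late mice all lay below the early mice (2.01% of 3441 such genes). They made up 0 of the 28 whose late mice all lay above (0.814%). Over the genes at 50 CPM or more, 245 carried the mark.

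**Figure D4:**
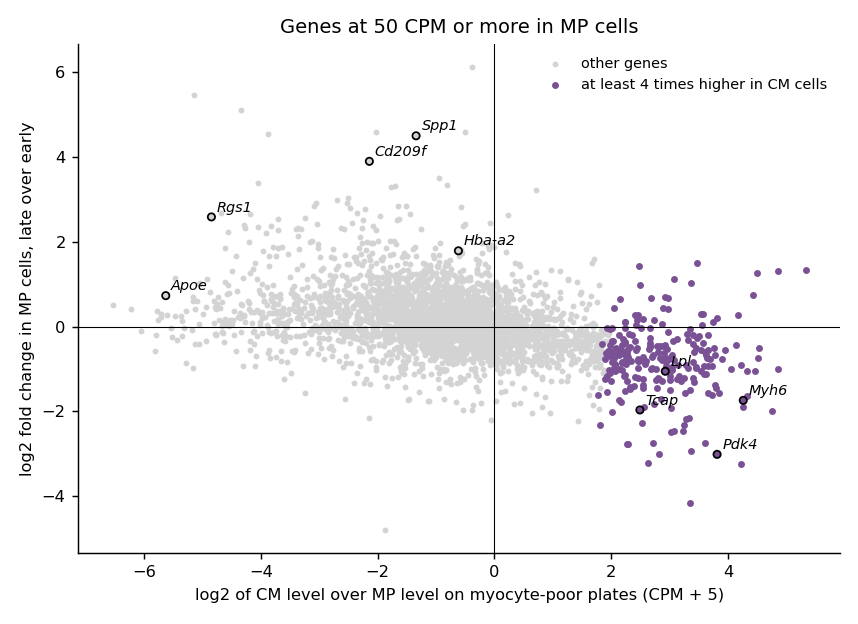
Each point is 1 of the 3441 genes at 50 CPM or more in MP cells: its level in cardiomyocytes over that in MP cells of myocyte-poor plates (x axis, log2 of CPM + 5) against its log2 fold change in MP cells, late over early (y axis). The 245 genes in purple, at least 4 times higher in cardiomyocytes, lie mostly below 0, and Cd209f and Rgs1 lie to the left and above 0.

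Outside the listed markers, 8 named genes whose late mice all lay below the early mice carried the second mark. Pdk4, the kinase that turns off pyruvate dehydrogenase and is high in fat-burning muscle (mm10 chr6:5483351-5496309), was at 207, 380.2, 119 and 87.4 CPM in the early mice and 8.42, 72.0, 5.01, 16.8 and 6.41 CPM in the late mice (log2 fold change -3.01 ± 0.74 SE, edgeR adjusted p = 0.444). It averaged 559 CPM in early and 43.9 CPM in late cardiomyocytes. Without 8w replicate 2, edgeR called Pdk4, as the only gene, with a log2 fold change of -4.32. Fndc5, the precursor of irisin, was at 83.0, 78.3, 63.9 and 61.3 CPM in the early mice and 8.24, 21.6, 2.41, 8.91 and 6.39 CPM in the late mice (log2 fold change -2.74 ± 0.65 SE, edgeR adjusted p = 0.437). The others were Itgb1bp2, or melusin, a muscle partner of integrin (-2.93 ± 0.67), the sarcoplasmic reticulum channel gene Tmem38a (-2.18 ± 0.58) and the muscle ubiquitin ligase gene Trim63 (-2.46 ± 0.72). N-cadherin, or Cdh2, of the intercalated disc had -2.02 ± 0.61, the acyl-CoA synthetase gene Acsl1 -1.47 ± 0.47 and the insulin-regulated glucose transporter gene Slc2a4 -2.75 ± 0.88.  Lpl, lipoprotein lipase, is a gene of lipid-handling macrophages and of cardiomyocytes alike, and its -1.05 ± 0.45 went with means of 566 and 3332 CPM on early myocyte-poor and myocyte-rich plates.

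**Figure D5:**
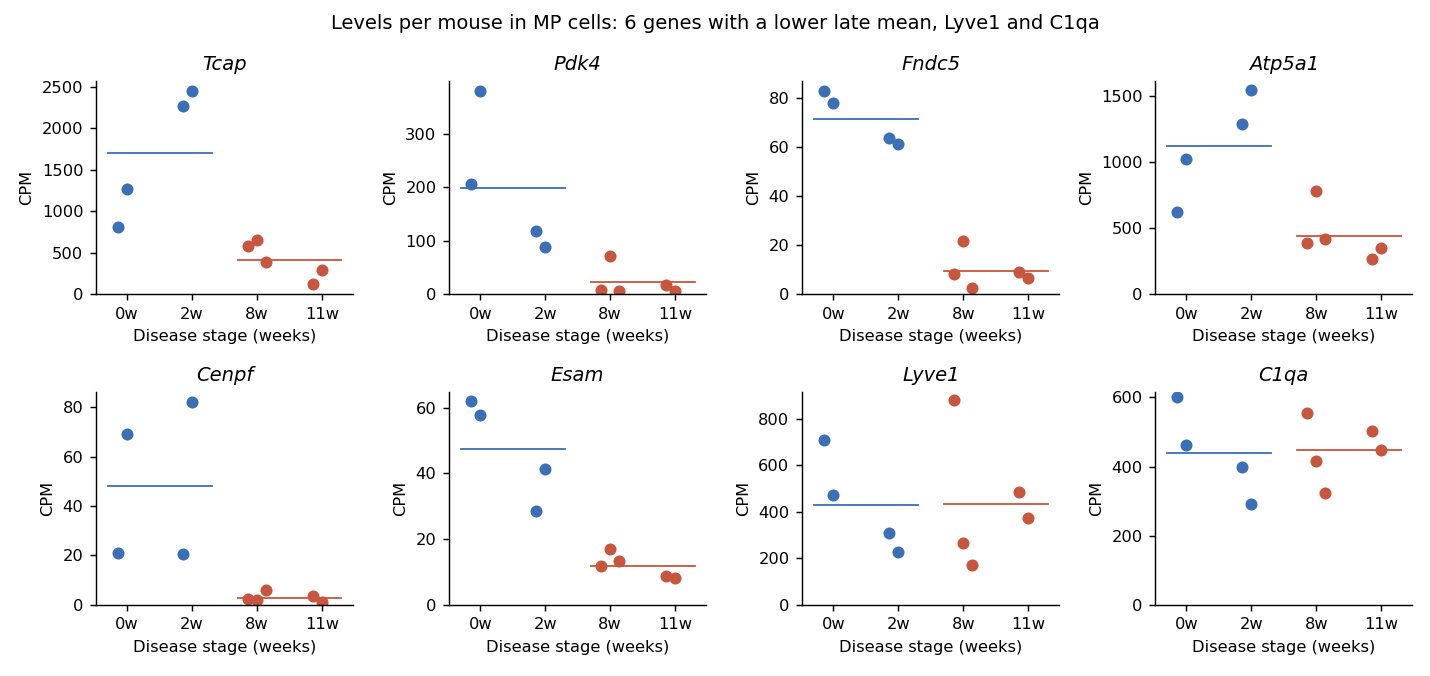
Levels in CPM (y axes) of 8 genes in the MP cells of each mouse, by disease stage in weeks (x axes), blue for the 4 early and red for the 5 late mice, with a line at each period's mean. Tcap, Pdk4, Fndc5, Cenpf and Esam do not overlap between the periods, Atp5a1 does in 1 late mouse, and Lyve1 and C1qa overlap throughout.

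Nuclear genes of oxidative phosphorylation, which build the respiratory chain, had 6 of 62 positive members (median -0.52 over all cells, -0.56 on myocyte-poor and -0.74 on myocyte-rich plates). At an unadjusted p under 0.05, 0 were higher and 8 lower, beside 2.44% and 3.45% of all genes. Atp5a1, a subunit of ATP synthase, was at 622, 1025, 1289 and 1553 CPM in the early mice and 389.8, 780.1, 420.1, 263 and 349 CPM in the late mice (log2 fold change -1.24 ± 0.37 SE, edgeR adjusted p = 0.681). Ndufv1 of complex I had -1.43 ± 0.51 and Cyc1 of complex III -1.03 ± 0.43. These 3 genes carried the second mark, with 1668, 346 and 485 CPM in cardiomyocytes against 282, 65.5 and 102 CPM in MP cells of myocyte-poor plates. Among the named genes without the mark whose late mice all lay below the early mice, Ech1 of fatty acid oxidation had -1.09 ± 0.35, Ivd of leucine breakdown -2.23 ± 0.73, the vesicle tethering gene Trappc1 -1.72 ± 0.47 and D17H6S56E-5 -1.57 ± 0.52. For Trappc1 the log2 fold change was -2.01 on the myocyte-poor and -1.52 on the myocyte-rich plates, whereas D17H6S56E-5 had -2.68 and 0.28.

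Of 33 cell cycle genes tested 7 were positive (median -0.78 over all cells, -1.76 on myocyte-poor and 0.24 on myocyte-rich plates), with 0 higher and 2 lower at an unadjusted p under 0.05, beside 3.45% of all genes lower at that p. In 1 of them all late mice lay below the early mice. Cenpf, a kinetochore protein of dividing cells (mm10 chr1:189640606-189688086), had the smallest p of the list. It was at 20.8, 69.0, 20.6 and 82.3 CPM in the early mice and 2.27, 1.98, 5.87, 3.54 and 1.02 CPM in the late mice (log2 fold change -4.06 ± 0.85 SE, edgeR adjusted p = 0.310), without overlap, and DESeq2 called it (adjusted p = 0.000155). Among all genes the smallest p belonged to Cdca8, or borealin, of the chromosomal passenger complex, which the rule for named genes does not reach and which was picked after its values were seen. It averaged 49.8 ± 40.1 CPM (SD, n = 4) early and 0.310 ± 0.449 CPM (SD, n = 5) late (edgeR adjusted p = 0.302). The kinetochore motor gene Cenpe was at 60.5, 50.1, 74.1 and 13.2 CPM in the early mice and 11.7, 6.08, 0, 3.06 and 33.2 CPM in the late mice (log2 fold change -1.98 ± 0.90 SE, edgeR adjusted p = 0.846), with 11w replicate 2 within the early range. Cenpf carried no cardiomyocyte mark, with 11.5 CPM in cardiomyocytes, and its early level was 68.2 CPM on myocyte-poor and 23.4 CPM on myocyte-rich plates. The authors' subcluster MP9, led by mitosis genes such as Birc5, Mki67 and Cenpf, took 0.813, 4.42, 2.65 and 3.68% of the MP cells of the early mice (20 cells in all). Among the late mice it took 3.53% in 11w replicate 2 (3 cells), within the early range, and no cell in the other 4. Without any 1 of the 9 mice the log2 fold change of Cenpf ran from -4.34 to -3.67. Late MP cells of 11w replicate 1 and 8w replicate 3 had the lowest median UMI numbers, and the part of depth in these low-level genes was not tested.

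Markers of further cell types were present in the MP sums of both periods. Of 12 endothelial markers 5 were positive (median -0.51; summed level 979 to 1823 CPM early, 196 to 2193 CPM late), and Esam, an adhesion molecule of endothelium, was at 62.2, 57.8, 28.6 and 41.4 CPM in the early mice and 11.9, 16.9, 13.2, 8.86 and 8.21 CPM in the late mice (log2 fold change -1.95 ± 0.65 SE, edgeR adjusted p = 0.753). Of 12 fibroblast markers 6 were positive (median 0.05; 2204 to 4059.9 CPM early, 1311 to 6138 CPM late). Among neutrophil markers, of which 5 of 13 passed the filter on low counts and the summed level was 97.1 to 412 CPM early and 165 to 395 CPM late, S100a9, a calcium-binding alarmin, was at 3.67, 3.28, 4.08 and 1.29 CPM in the early mice and 17.9, 1.83, 138, 22.1 and 70.1 CPM in the late mice (log2 fold change 4.07 ± 1.07 SE, edgeR adjusted p = 0.596). In the late mice other than 8w replicate 2, 1 cell gave 71.6% to 97.8% of the S100a9 level. Red cell and platelet genes reached 5882 to 18693 CPM early and 3186 to 51528 CPM late, with the globin gene Hba-a2 at 1817, 2913, 2954 and 2620 CPM in the early mice and 1513, 1348, 20671, 2789 and 14203 CPM in the late mice (log2 fold change 1.79 ± 0.72 SE, edgeR adjusted p = 0.844) and highest in 8w replicate 3 and 11w replicate 2. Of T and NK cell markers 5 of 18 and of B cell markers 2 of 9 passed the filter. Their summed levels were 20.6 to 138 CPM and 147 to 254 CPM early, and 0 to 231 CPM and 24.7 to 214 CPM late. The part of these cell types in the gene differences was not tested.

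The authors' 9 macrophage subclusters, used as deposited and described without a test, were spread unevenly over the plates. MP1, led by cardiomyocyte genes (Myh6, Atp2a2, Actc1), held 219 cells of the 9 mice, all on myocyte-rich plates, with 13.5% cardiomyocyte marker and 0.644% macrophage identity transcripts. It made up 14.6, 35.9, 37.0 and 36.8% of the MP cells of the early mice, 12.5% in 8w replicate 2 and 0% in the other 4 late mice. MP2 was the other subcluster mostly on myocyte-rich plates (128 of 153 cells). Its leading genes included Spp1 and the muscle genes Xirp2, Nppb and Myh7, and it held 5.85% cardiomyocyte marker and 1.24% macrophage identity transcripts. MP2 averaged 9.45% ± 3.55 (SD, n = 4) early and 31.8% ± 21.1 (SD, n = 5) late. Of the cells on myocyte-rich plates, MP1 took 213 of 272 early and 6 of 124 late cells, and MP2 took 43 and 85. MP7, led by endothelial genes such as Cdh5 and Fabp4 (57 early and 36 late cells), and MP8, led by fibroblast genes such as Dcn and Col1a2 (32 and 42), were mostly on myocyte-poor plates. Without the cells of MP1, MP7 and MP8, a setting chosen after the data were seen that leaves out most early and few late cells of the myocyte-rich plates and keeps those of MP2, the cardiomyocyte markers had a median of 0.41 in place of -0.85. The median was then 0.02 for oxidative phosphorylation, -1.23 for the cell cycle, 0.14 for resident macrophage and 0.34 for recruited monocyte genes, beside -0.05 for all genes. Rgs1 had 2.80, Ccr2 1.57, Tcap -1.09 and Myh6 0.07 in that setting, and edgeR again called 0 genes.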

How the data were processed

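Single cells of left ventricles were read in 16 mice. The deposited matrix holds counts of UMIs per gene and cell, whole numbers not normalized, and the deposited cell table lists for every cell its plate (in its name), mouse, annotated type and subcluster. The submitters' processing notes name STAR 2.5.2b, featureCounts, Subread 1.4.6-p1, mm10 and GRCh37; the sources used here do not give their roles or the filters behind the matrix. The members and gene lists were chosen with earlier results of these data known.

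MP cells of 9 mice were each scaled to their non-mitochondrial total, averaged with equal weight within a mouse, multiplied by the mouse's UMI total and rounded to whole numbers. Genes were kept by filterByExpr on the raw sums and tested with edgeR 4.0.16 (TMM factors, robust quasi-likelihood test, two-sided, adjusted p threshold 0.05). DESeq2 1.42.0 and limma 3.58.1 on log2 values with pseudocounts of 5 and 1 were alternatives (R 4.3.3, Python 3.11.15), beside raw sums, cells thinned to 1000 UMIs, other scalings and filters, each mouse left out, and 5 settings chosen after the data were seen. The pipeline was tested on simulated counts with a fixed spread, without plate effects or equal-weight sums. That test cannot show how often changes are found or missed in these data. Replicates are mice as labelled, so p-values measure the spread between these mice. On plate K an MP cell's non-mitochondrial UMIs were a median of 0.481 and 0.478 of its total in the deposited cell table, in 11w replicates 1 and 2. On every other plate of the 9 mice this median was 1.0. Why the deposited totals of plate K differ was not tested.

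Since no gene passed, named genes with non-overlapping periods and at least 50 CPM in the higher period were the 12 with the smallest p in each direction, with up to 6 cardiomyocyte-marked genes each way, up to 3 members of each list by p, and 25 fixed genes. This rule gave 137 genes. The text describes 74 of them, picked after their values were seen. Gene coordinates are from GENCODE M21 on mm10, matched by symbol. A gene was marked as a cardiomyocyte transcript when listed, or at 4 times the MP level and 50 CPM in cardiomyocytes.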

Additional observations from a re-analysis of the deposited data

Results flagged for a closer look

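Within each period, 158 groups of 4 or 5 values per mouse were searched for a mouse far from the others by Dixon's ratio, the gap to the next mouse over the whole range. Of these 14 held one, and chance alone marks about 1 in 20. Cd209f was at 155 CPM in 8w replicate 3, the highest late mouse, with the next at 66.4 CPM. Ndel1 was at 542 CPM in 8w replicate 3, the highest late mouse, with the next at 135 CPM. Trappc4 was at 59.7 CPM in 0w replicate 2, the lowest early mouse, with the next at 78.7 CPM. Chi3l3 was at 2.60 CPM in 2w replicate 1, the highest early mouse, with the next at 0.242 CPM. Spp1 was at 895 CPM in 11w replicate 2, the highest late mouse, with the next at 75.9 CPM. C4b was at 968 CPM in 8w replicate 3, the highest late mouse, with the next at 207 CPM. Hspa8 was at 549 CPM in 8w replicate 2, the lowest late mouse, with the next at 1154 CPM. Lamp1 was at 460.5 CPM in 2w replicate 1, the lowest early mouse, with the next at 597 CPM. Pdk4 was at 72.0 CPM in 8w replicate 2, the highest late mouse, with the next at 16.8 CPM. Cdh2 was at 53.3 CPM in 8w replicate 2, the highest late mouse, with the next at 16.7 CPM. Gpnmb was at 6.09 CPM in 2w replicate 2, the highest early mouse, with the next at 1.29 CPM. Ly6c2 was at 516 CPM in 11w replicate 2, the highest late mouse, with the next at 73.6 CPM. Ccl8 was at 1569 CPM in 2w replicate 1, the highest early mouse, with the next at 411 CPM. The median of non-mitochondrial UMIs per MP cell was 46597.5 in 8w replicate 1, the highest late mouse, with the next at 16907.5. Of the 14 values, 3 were in 8w replicate 3, which had 22 MP cells, and in this mouse 1 cell gave 100% of the Cd209f, 65.6% of the Ndel1 and 51.6% of the C4b level.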

How the results depend on the processing

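In 24 of 27 settings besides the one reported 0 genes were called in either direction. DESeq2 called 27 higher and 33 lower genes, and edgeR without a filter on low counts 63 and 67, of which 58 were not tested otherwise; 29 genes were called by both. With each mouse left out the numbers ran from 0 to 0 higher and 0 to 1 lower, the 1 being Pdk4 without 8w replicate 2. The cause of these calls was not tested. The difference in the share of macrophages was -3.83 percentage points of all annotated cells (exact permutation p = 0.238), and -9.95 to -4.57 with each mouse left out. The labels do not say that the replicate numbers pair the mice. Same-numbered mice of different stages correlated at -0.01 to 0.09 in their deviations from the stage means. In stages of 2 mice these deviations mirror each other, so the correlations cannot show whether mice were paired. With the replicate block edgeR called 0 genes and the share gave p = 0.222 in the exact permutation test. The median log2 fold change of all genes was -0.03, and -0.24 and -0.43 in limma with pseudocounts of 5 and 1 and -0.11 without scaling factors.

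Of 1933 values of single genes 71 changed sign, in 22 of 74 genes, and the cause was not tested. Log2 fold changes that changed sign are given by setting. On myocyte-rich plates they were Trappc4 -0.35, Ccl24 -0.10, D17H6S56E-5 0.28, Timd4 0.12, Cd163 0.16, Igf1 0.24, Cd74 0.57, Tnf 0.65 and Hmox1 0.41. Without subclusters MP1, MP7 and MP8 they were Myh6 0.066, Lpl 0.0049, Lyve1 -0.14, Folr2 -0.24, H2-Aa -0.20, Ccl2 -0.14, Ccl8 -0.17, Fn1 -0.23 and C1qa -0.21. On myocyte-poor plates they were Trem2 -0.030, Lyve1 -0.51, Folr2 -0.29, Il10 -0.31, Ccl8 -0.029, Fn1 -1.07 and C1qa -0.12. With cells thinned to an equal depth it was Lyve1 -0.060. In limma with a pseudocount of 5 they were Lyve1 -0.062 and Ccl2 -0.0074. In limma with a pseudocount of 1 they were Lyve1 -0.064, Cx3cr1 -0.42 and Ccl2 -0.0074. With mitochondrial genes in the total it was Lyve1 -0.025. With no filter on low counts they were Lyve1 -0.013 and Ccl2 -0.010. With both kinds of plate at equal weight they were Lyve1 -0.040 and Tnf 0.29. With raw sums they were Igf1 0.080, H2-Aa -0.025, Cd74 0.039, Ccl8 -0.037 and Hmox1 0.48. With the replicate block they were Cd74 0.20, Hmox1 0.10 and Fn1 -0.42. Without both 11w mice they were Il10 -0.51, Ccl8 -0.87 and Hmox1 0.23. With no scaling factors it was Ccl2 -0.0044. In DESeq2 it was Hmox1 0.040. With RLE factors it was Hmox1 0.038. With each mouse left out the ranges that crossed 0 were Lyve1 -0.27 to 0.42, Ly6c2 -0.035 to 1.66, H2-Aa -0.016 to 0.79, Cd74 -0.36 to 0.13, Tnf -0.45 to 0.054, Ccl2 -0.36 to 0.43, Ccl8 -0.34 to 1.18, Hmox1 -0.29 to 0.40, Fn1 -0.46 to 0.79, C1qa -0.047 to 0.30. Plate kinds, equal weight, the mice at 11w and the subclusters were chosen after the data were seen. Precision is limited by 22 to 189 MP cells per mouse, by as few as 6 per mouse within a kind of plate, and by levels that single cells can set.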

Other observations

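Other groups of genes gave values in these macrophages that enter no comparison above, and none of their members passed edgeR's adjusted test. Of the genes for repair and growth factors 28 of 37 had a positive log2 fold change (median 0.57 over all cells, 0.12 on myocyte-poor and 0.77 on myocyte-rich plates). At an unadjusted p under 0.05, 5 were higher and 1 lower, beside 2.44% and 3.45% of all genes. Genes of the actin cytoskeleton and adhesion had 27 of 33 positive (median 0.40 over all cells, 0.03 on myocyte-poor and 0.80 on myocyte-rich plates). Heat shock and chaperone genes, which rise in stressed cells and during tissue digestion, had 13 of 20 positive, with a median of 0.26 over all cells, 0.27 on myocyte-poor and -0.19 on myocyte-rich plates. The scavenger receptor gene Marco was at 0, 3.13, 10.0 and 0.0195 CPM in the early mice and 0, 0, 824, 7.26 and 278 CPM in the late mice, from 2 cells in 8w replicate 3 and 3 in 11w replicate 2.

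The 7 mice at 5w, which had 11 to 253 MP cells, gave wide ranges. Ccr2 ran from 0 over a median of 187 to 509.5 CPM and Rgs1 from 10.7 over 62.1 to 172 CPM. Spp1 reached 12.1 CPM at most, and Tcap ran from 16.7 to 1882 CPM.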
